A study of Osmia excavata with 6 samples.

Results

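The cytochrome P450 monooxygenase family of the mason bee Osmia excavata was described from the assembled genes whose best match was a bee protein and whose description or Swiss-Prot match named cytochrome P450. Rows matching the 4G subfamily and rows described by ecdysone were left out by the same rule. The rule found 54 members among 37061 assembled genes, of which 11315 matched a Hymenoptera genus. Of the 54, 52 were P450 enzymes and 2 were NADPH-cytochrome P450 reductase, the flavoprotein that passes electrons to them. Each row was placed in a subfamily by its nearest named relative, which is a likeness and not a formal P450 name.

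P450 enzymes are heme proteins that insert an oxygen atom into small, mostly fat-soluble molecules. Insect P450s are usually grouped into 4 clans. Many enzymes of the CYP3 clan, which holds the CYP6 and CYP9 families, attack plant toxins and insecticides, and in the related red mason bee Osmia bicornis CYP9 enzymes break down the insecticide thiacloprid. Enzymes of the CYP2 and mitochondrial clans make and inactivate the moulting hormone ecdysteroid and make juvenile hormone, and the CYP4 clan acts on fatty acids and hydrocarbons.

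Poly(A) RNA was sequenced from 3 libraries of bees given water immersion, titled as a decocooning group, and from 3 control libraries. Where a tissue would be named the labels repeat the species, and they give no body part, sex, age or time of sampling. Wetting and leaving the cocoon cannot be told apart in these groups. Nothing says that the replicates came from different animals, and the p-values therefore measure only the spread between these samples.

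Estimated counts totalled 17755830 to 18666554 in the immersion libraries and 16765886 to 19953734 in the control libraries. The members held 103123 to 123866 of these counts in the immersion libraries and 111950 to 118970 in the control libraries. The libraries did not differ by group alone. Genes matching the worm genus Caenorhabditis held 14050, 14980 and 14210 CPM (counts scaled to library size) in immersion 1, 2 and 3, against 3464 CPM in control 1, 0.906 CPM in control 2 and 0.201 CPM in control 3. Control 1 was the only control above 1000 CPM, the limit used here to speak of a library with many worm counts. The scaling factors of the trimmed mean method (TMM) were 1.118, 1.131 and 1.127 in the immersion libraries, against 1.027, 0.907 and 0.754 in the control libraries.

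The family was large in number and modest in level. Its summed level was 0.352 to 0.575% of all TPM in a library, TPM being a transcript level scaled for length and library sum. The CYP3 clan held 29 rows, the CYP2 clan 8, the mitochondrial clan 7 and the CYP4 clan 3. Another 5 P450 rows had no subfamily. The CYP3 clan carried 81.6 to 84.2% of the members' TPM in every library, and the 3 highest members carried 33.4 to 42.3%. A P450 protein domain was annotated in 48 of the 54 rows, and 45 were described from Osmia bicornis. The CYP9E2 protein was the nearest Swiss-Prot relative of 9 rows, and Cyp6a14 of 8 rows.

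A filter on low counts kept 40 members for testing, 38 of them P450 rows. The other 14 were fragments of 202 to 707 bases with at most 15.5 estimated counts in any library, and 1 of them had no count at all. They were nearest CYP6A, CYP6B, CYP9E, CYP15A, CYP18A, CYP2U and CYP24A, with 4 of the 5 rows without a subfamily. These fragments held 0.317 to 1.87% of the members' TPM. All 36 members of at least 1000 bases were tested. Some rows share an assembly component and may be pieces or variants of the same gene, namely 13 rows in 5 components, so neighbouring rows are not independent. Reads of close paralogs can be split between rows by the quantification.

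Across the family, the fold changes of P450 transcripts lay on the whole a little below those of the other bee genes, and no member passed the test. In edgeR's quasi-likelihood test with Benjamini-Hochberg adjustment over 9250 Hymenoptera-matched genes, 0 of 40 members had an adjusted p under 0.05, where 0.0% of all tested genes did. The lowest adjusted p of a member was 0.0907, and the lowest of any gene was 0.0639. At an unadjusted p under 0.05 stood 5 of 40 members (12.5%), all lower in immersion libraries, against 34.8% of all tested genes. By direction the share of all tested genes was 14.2% higher and 20.6% lower. With unscaled CPM, 6 of 40 members stood at such a p, 5 of them higher and 1 lower, against 34.2% of all genes, 25.2% higher and 8.99% lower. Under both scalings the family held a smaller share of such genes than all tested Hymenoptera-matched genes did. DESeq2 called 3 members, limma-voom with library weights called 17, and limma-voom without weights called 0. The same tools called 21.9%, 68.9% and 0.0% of all genes.

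The 3 immersion values lay outside the 3 control values in normalised CPM (TMM-scaled) for 7 of 40 members (17.5%), 6 of them lower and 1 higher, against 46.2% of all tested genes (24% higher and 22.2% lower). In TPM it was also 7 of 40, against 44.6% of all tested genes. The median log2 fold change of the 40 members, immersion minus control, was -0.14, against 0.02 for all 9250 genes. It was negative in 28 members and positive in 12, and ran between -1.60 and 0.65. The median size of the log2 fold change, whatever its sign, was 0.20 in the members and 0.47 in all genes. A log2 fold change beyond 1 in either direction was fitted for 1 member (2.5%), against 9.99% of all genes. The median standard error (SE) was 0.22 in the members and 0.25 in all genes.

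**Figure D1:**
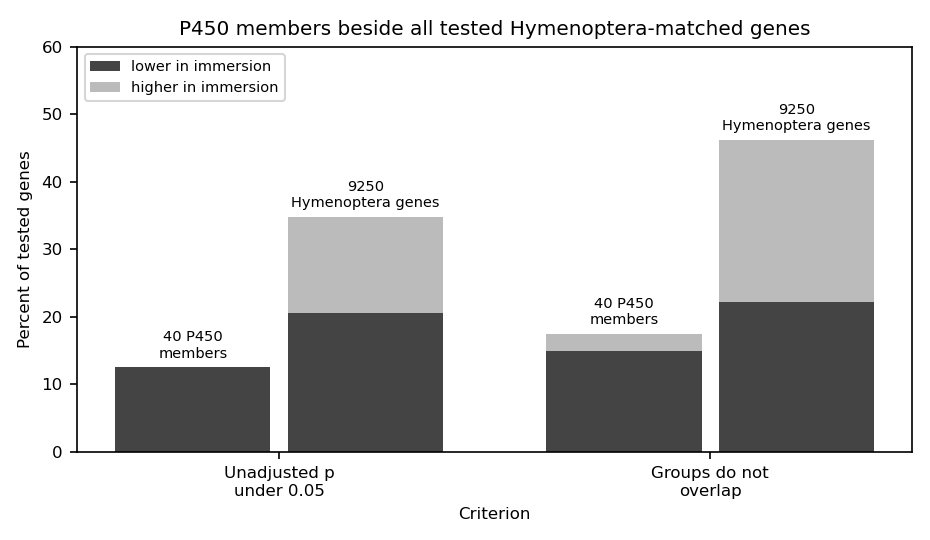
Bars give the percent of the 40 tested P450 members (left of each pair) and of the 9250 tested Hymenoptera-matched genes (right of each pair) that met a criterion, divided into those lower (dark) and higher (light) in the immersion libraries. The members reach 12.5% and 17.5%, against 34.8% and 46.2% of all genes.

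The sign of the family's median depended on how the libraries were scaled. A scaling factor moves all genes of a library alike, so the median's place relative to all genes could hardly change with scaling. With unscaled CPM the members' median log2 fold change was 0.20 and the median of all genes was 0.35, against -0.14 and 0.02 with TMM. Relative to all genes the members' median was -0.15 with unscaled CPM and -0.17 with TMM. Under other settings this distance moved, to -0.11 without control 2 and to -0.33 with the length trend removed. Most members lay below the all-gene median, 29 of 40 with unscaled CPM and 28 of 40 with TMM, while 32 of 40 were positive with unscaled CPM and 12 of 40 with TMM. The members higher at an unadjusted edgeR p under 0.05 with unscaled CPM were the CYP9E rows DN25846 and DN10634, DN4731, DN2885 and the CYP6A row DN18375, with log2 fold changes of 0.72, 0.55, 0.97, 0.49 and 0.49, and the lower one was DN326, with -0.35. Statements of direction below are on the TMM or TPM scale unless unscaled CPM is named.

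**Figure D2:**
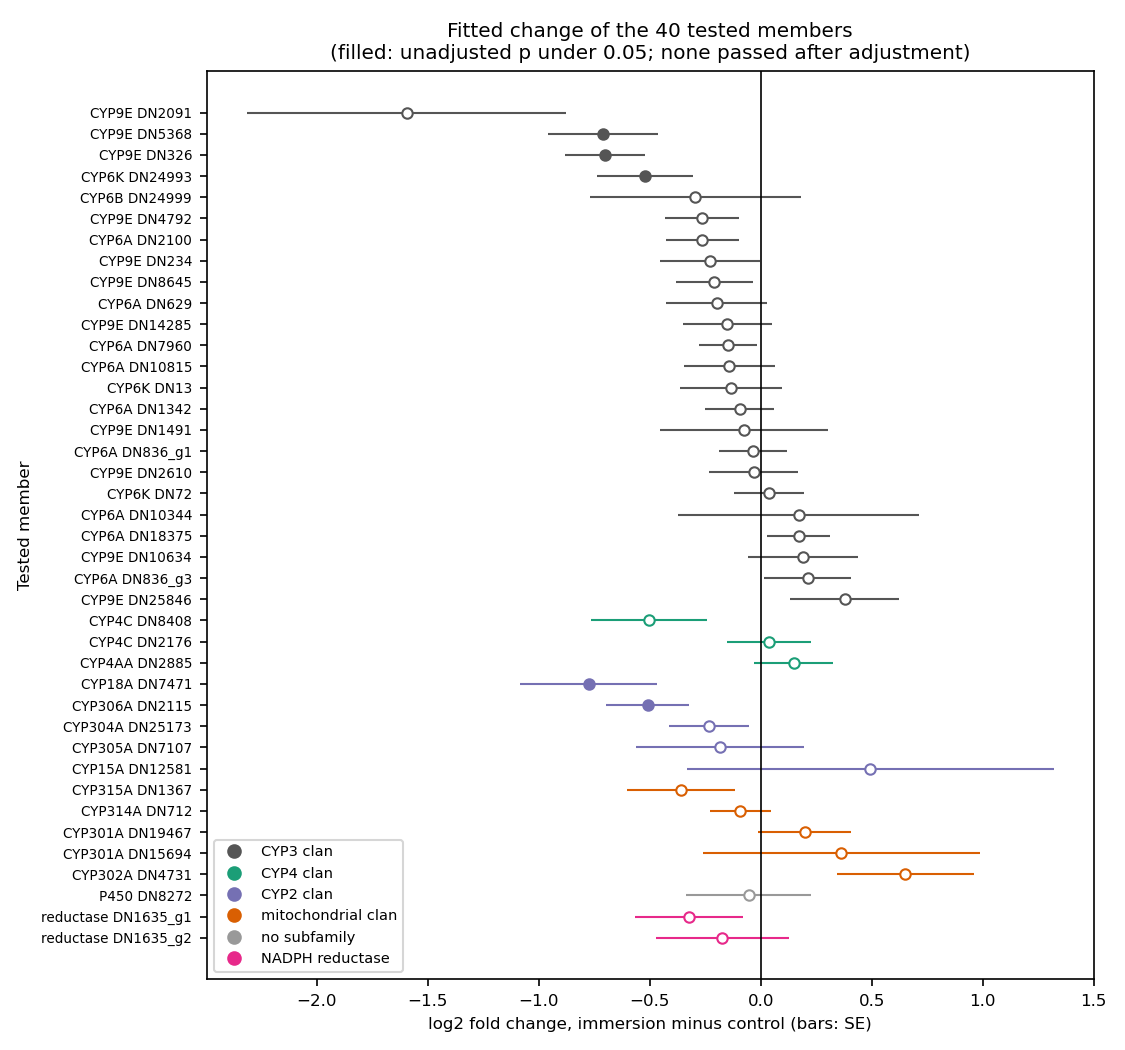
Points give the fitted log2 fold change (immersion minus control, horizontal axis) of each of the 40 tested members with its SE as a bar, coloured by clan, and filled points have an unadjusted p under 0.05. The values run between -1.60 and 0.65, and all 5 filled points lie below 0 with this TMM scaling (with unscaled CPM 5 of 6 lie above).

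The summed TPM of the 54 members was 4150, 3567 and 3521 in immersion libraries 1, 2 and 3, against 4394, 5054 and 5746 in control libraries 1, 2 and 3. The groups did not overlap, and the ratio of the means was 0.740. In normalised CPM the sums were 6413, 5996 and 5554 in the immersion libraries, against 7003, 7378 and 8379 in the control libraries, with a ratio of 0.789. In unscaled CPM the sums were 7165, 6778 and 6255 in the immersion libraries, against 7187, 6689 and 6313 in the control libraries. On that scale the groups overlapped and the ratio was 1.0. In these samples, whose body part is not given, fewer cells of a type and less RNA per cell cannot be told apart.

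**Figure D3:**
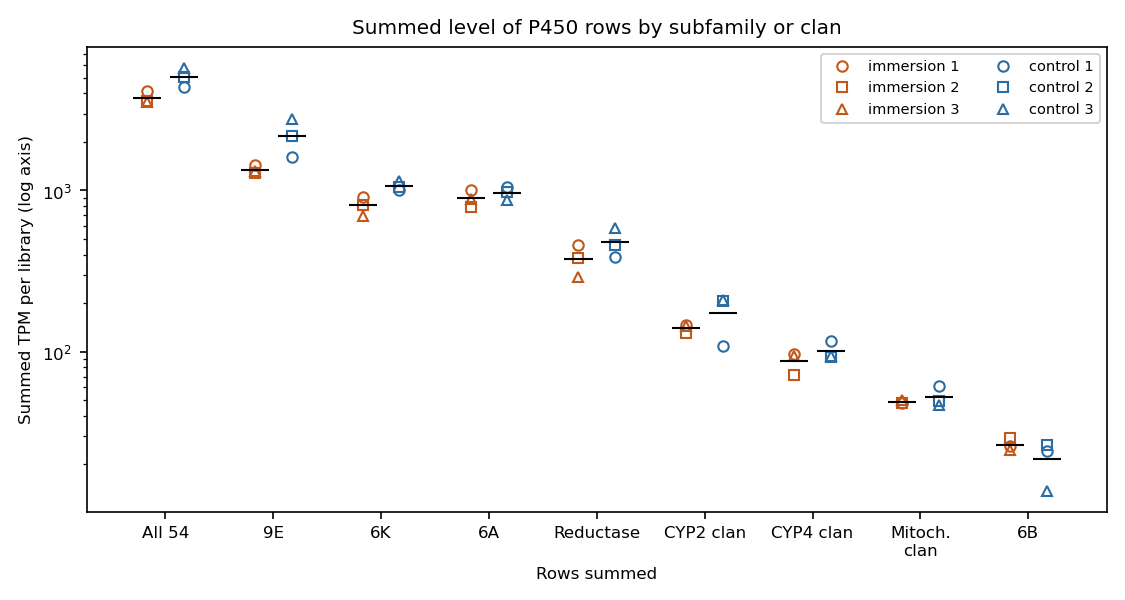
Points give the summed TPM (log axis) of each group of P450 rows in each library, immersion in orange to the left of control in blue, and short lines give the group means. For all 54 rows the immersion libraries sit between 3521 and 4150, below the control libraries at 4394 to 5746. Most of this distance in TPM lies in CYP9E and CYP6K. In unscaled CPM the groups overlapped for all 54 rows and for CYP6K.

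The CYP9E rows of the CYP3 clan, whose family includes the insecticide-metabolising enzymes of bees, had the highest summed level of any subfamily and the widest distance between the groups in summed TPM. Their 12 rows summed to 1431, 1288 and 1323 TPM in the immersion libraries, against 1623, 2185 and 2768 TPM in the control libraries. The means were 1348 ± 74.7 and 2192 ± 573 TPM (SD, n = 3 each), a ratio of 0.615, while the much lower CYP18A rows had a ratio of 0.579. No immersion library reached the lowest control library, which was control 1. CYP9E rows made up 34.5, 36.1 and 37.6% of the members' TPM in the immersion libraries, against 36.9, 43.2 and 48.2% in the control libraries. Of 11 tested CYP9E rows, 9 had a negative and 2 a positive log2 fold change, with a median of -0.21, and with unscaled CPM 8 were positive with a median of 0.13. Set against control 1 alone, by a term for the 4 libraries above 1000 CPM of worm counts, the median of the same rows was 0.02 and 6 were positive.

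The highest member of the family was the CYP9E2-like TRINITY_DN326_c0_g1. It had 551, 465 and 495 TPM in immersion libraries 1, 2 and 3, against 684, 859 and 999 TPM in control libraries 1, 2 and 3. All immersion values lay below all control values. Its log2 fold change of -0.70 (SE 0.18) came with an edgeR p of 0.00512 and an adjusted p of 0.0907, the lowest of the family. DESeq2 gave an adjusted p of 0.00267, and edgeR without control 1 gave 0.0115. Against control 1 alone the log2 fold change was -0.49, and with unscaled CPM it was -0.35.

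A second CYP9E2-like row, TRINITY_DN5368_c0_g3, had 237, 182 and 218 TPM in the immersion libraries, against 307.04, 440 and 598 TPM in the control libraries. The groups did not overlap, and control 3 was the highest. This gave a log2 fold change of -0.71 (SE 0.25, edgeR adjusted p 0.113), and DESeq2 gave an adjusted p of 0.0393. Against control 1 alone it was -0.20, and with unscaled CPM -0.33.

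The row with the largest fitted change was TRINITY_DN2091_c1_g1, described from the stingless bee Melipona quadrifasciata as P450 9e2 and without an annotated P450 domain. It had 103, 142 and 60.7 TPM in the immersion libraries, against 77.9, 231 and 539 TPM in the control libraries. Control 1 lay inside the immersion range, so the groups overlapped. The log2 fold change of -1.60 (SE 0.72, edgeR adjusted p 0.156) became 0.67 against control 1 alone and -2.07 without control 1.

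The CYP9E2-like TRINITY_DN4792_c0_g1 had 166, 178 and 144 TPM in the immersion libraries, against 188, 224 and 200 TPM in the control libraries. These groups also stood apart, by a small distance. edgeR fitted a log2 fold change of -0.27 (SE 0.17, edgeR adjusted p 0.258) and 0.06 with unscaled CPM. At the low end, TRINITY_DN25846_c0_g1 had 3.76, 3.01 and 2.56 TPM in the immersion libraries, against 2.16, 2.66 and 2.47 TPM in the control libraries. The fitted change on the log2 scale was 0.38 (SE 0.25, edgeR adjusted p 0.274), the highest of the CYP9E rows, and its groups overlapped. The remaining CYP9E rows above 50 TPM, DN8645, DN14285 and DN2610, had log2 fold changes of -0.21, -0.15 and -0.03, and their groups overlapped. The low CYP9E rows DN234 and DN10634 had log2 fold changes of -0.23 and 0.19, also with overlap.

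**Figure D4:**
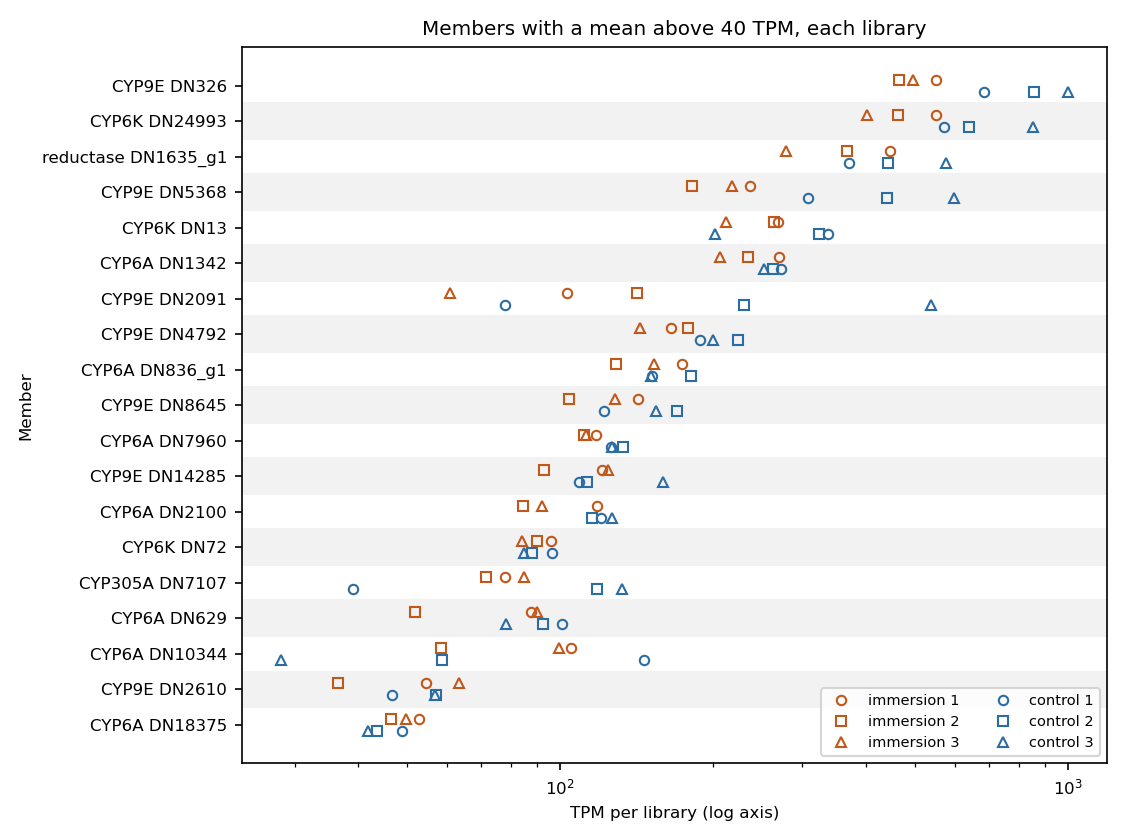
Each point is the TPM (log axis) of a member in a library, for the members with a mean above 40 TPM, with immersion in orange above control in blue and the replicate number shown by shape. CYP9E DN326 and DN5368 and CYP6K DN24993 show no overlap between the groups, while CYP6A DN10344 spans 28.2 to 146 TPM within the control libraries alone.

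The CYP6K rows, like CYP6 enzymes in general placed in the CYP3 clan, were the second contributor. Their 3 rows summed to 915, 816 and 699 TPM in the immersion libraries, against 1005, 1049 and 1141 TPM in the control libraries. The ratio was 0.761 without overlap in TPM, while in unscaled CPM the summed groups overlapped. Most of the distance in TPM lay in TRINITY_DN24993_c0_g1, which resembles CYP6K1 and was the second highest member. It had 550, 462 and 402 TPM in the immersion libraries, against 571, 638 and 854 TPM in the control libraries. The groups stood apart, although immersion 1 and control 1 were close. The log2 fold change was -0.52 (SE 0.22, edgeR p 0.0442, adjusted p 0.138), with -0.28 against control 1 alone and -0.16 with unscaled CPM. With unscaled CPM the CYP6K median was 0.16 and 2 of the 3 rows were positive. The other CYP6K1-like rows, DN13 and DN72, had log2 fold changes of -0.13 and 0.04.

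The CYP6A rows, whose Drosophila relatives include enzymes of insecticide resistance, differed less. Their 11 rows summed to 1013, 787 and 880 TPM in the immersion libraries, against 1048, 972 and 872 TPM in the control libraries, a ratio of 0.927 with overlapping groups. Of 9 tested rows, 0 had an edgeR unadjusted p under 0.05, 6 were negative and 3 positive, and the median log2 fold change was -0.10, or 0.23 with all 9 positive on unscaled CPM. The share of the members' TPM held by CYP6A was 24.4, 22.1 and 25.0% in the immersion libraries, against 23.9, 19.2 and 15.2% in the control libraries.

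Among CYP6A rows, the Cyp6a14-like TRINITY_DN2100_c0_g1 had 118, 84.4 and 92.2 TPM in the immersion libraries, against 120, 116 and 127 TPM in the control libraries. Immersion 1 lay within the control range. This gave a log2 fold change of -0.26 (SE 0.16, edgeR adjusted p 0.256) and 0.07 with unscaled CPM. Another Cyp6a14-like row, TRINITY_DN7960_c0_g4, was among the steadiest of the family. It had 118, 112 and 113 TPM in the immersion libraries, against 126, 133 and 126 TPM in the control libraries. Its groups did not overlap at a log2 fold change of only -0.15 (SE 0.13, edgeR adjusted p 0.407). The relative of Cyp6a20, a gene known in Drosophila for its part in male aggression, was the least steady of the tested CYP6A rows. TRINITY_DN10344_c0_g1 had 105, 58.4 and 99.5 TPM in the immersion libraries, against 146, 58.5 and 28.2 TPM in the control libraries. Its control values spanned the whole immersion range. The highest CYP6A row, DN1342, had 206 to 269 TPM in the immersion libraries and 252 to 272 TPM in the control libraries. The remaining tested CYP6A rows, DN629, DN10815, DN836_c0_g1, DN18375 and DN836_c0_g3, had log2 fold changes of -0.20, -0.14, -0.03, 0.17 and 0.21, and the groups of each overlapped.

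The 3 CYP6B rows were low. They summed to 26.1, 29.0 and 24.4 TPM in the immersion libraries, against 24.3, 26.5 and 13.7 TPM in the control libraries, and the groups overlapped. Only DN24999 was tested, with a log2 fold change of -0.30 (SE 0.47) and an edgeR adjusted p of 0.649.

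The CYP4 clan, known for fatty acid and hydrocarbon oxidation, had 3 members left by the rule. The CYP4C1-like TRINITY_DN8408_c0_g1 had 40.4, 22.2 and 35.0 TPM in the immersion libraries, against 57.6, 36.1 and 45.1 TPM in the control libraries. Immersion 1 lay above control 2. edgeR fitted a log2 fold change of -0.50 (SE 0.26, edgeR adjusted p 0.192), against control 1 alone it was -0.84, and with unscaled CPM it was -0.20. The Cyp4c3-like TRINITY_DN2176_c1_g1 had 33.2, 32.3 and 33.6 TPM in the immersion libraries, within the control values of 42.4, 38.4 and 29.5 TPM. The fitted change on the log2 scale was 0.04 (SE 0.19). The Cyp4aa1-like TRINITY_DN2885_c0_g1 had 23.0, 17.6 and 24.8 TPM in the immersion libraries, overlapping the control values of 16.2, 17.6 and 19.9 TPM, with a log2 fold change of 0.15 (SE 0.18).

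The rule kept the P450 rows that resemble ecdysteroid enzymes, since their protein descriptions do not name the hormone. The only bee-matched P450 rows it left out were the 2 of the 4G subfamily. The 6 rows resembling the hormone-making Halloween enzymes or the inactivating Cyp18a1 summed to 51.2, 43.4 and 47.0 TPM in the immersion libraries, against 56.6, 60.3 and 70.2 TPM in the control libraries. The summed groups did not overlap in TPM, while in unscaled CPM they did. Of 5 tested rows, 4 were negative and 1 positive, 2 of the negative rows had an edgeR unadjusted p under 0.05 (2 of 5, against 20.6% of all tested genes in that direction), and 0 passed after adjustment. With unscaled CPM 3 were negative and 2 positive.

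TRINITY_DN2115_c0_g2 resembles phantom (phm, CYP306A), which hydroxylates an early ecdysteroid precursor. Its protein description names the protein kinase fused, while it carries a P450 domain. The row may be a joined transcript, and its counts cannot be divided between kinase and P450. It had 14.5, 12.6 and 16.2 TPM in the immersion libraries, against 17.7, 23.98 and 23.3 TPM in the control libraries. The groups did not overlap. The log2 fold change was -0.51 (SE 0.19), with an edgeR p of 0.0281 and an adjusted p of 0.119, and DESeq2 gave an adjusted p of 0.047. The fold change was -0.24 against control 1 alone and -0.16 with unscaled CPM.

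TRINITY_DN7471_c0_g1 resembles Cyp18a1, which inactivates ecdysteroids. It had 5.18, 2.93 and 3.43 TPM in the immersion libraries, against 4.78, 6.59 and 8.56 TPM in the control libraries. Immersion 1 lay above control 1, so the groups overlapped. This gave a log2 fold change of -0.78 (SE 0.31, edgeR p 0.0392, adjusted p 0.132), with -0.33 against control 1 alone and -0.41 with unscaled CPM.

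The mitochondrial enzymes of the same pathway did not share a direction. TRINITY_DN4731_c0_g3 resembles disembodied (dib, CYP302A), a precursor hydroxylase, and had 3.37, 2.54 and 3.78 TPM in the immersion libraries, against 2.62, 1.45 and 2.15 TPM in the control libraries. In TPM immersion 2 lay below control 1, while in normalised CPM it was the only member whose immersion values all lay above the control values. Its log2 fold change was the highest of the family, 0.65 (SE 0.31, edgeR p 0.0694, adjusted p 0.167), with 0.29 against control 1 alone and 0.97 with unscaled CPM. TRINITY_DN1367_c0_g1 resembles shadow (sad, CYP315A), the next hydroxylase, and had 13.5, 12.01 and 8.0 TPM in the immersion libraries, against 14.8, 13.2 and 16.4 TPM in the control libraries. Immersion 1 lay just above control 2, and the log2 fold change was -0.36 (SE 0.24, edgeR adjusted p 0.287), with -0.02 on unscaled CPM.

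TRINITY_DN712_c0_g1 resembles shade (shd, CYP314A), which makes the active hormone from ecdysone in target tissues. It had 14.6, 13.3 and 15.6 TPM in the immersion libraries, against 16.8, 15.1 and 19.9 TPM in the control libraries. The groups overlapped. edgeR fitted a log2 fold change of -0.09 (SE 0.14) and 0.24 with unscaled CPM. With a length trend removed it was 0.47, this row being the longest of the family at 8036 bases. An unplaced row of 707 bases, DN7591, is assigned to CYP307A by its KEGG entry, the family of the early Halloween enzyme spook, and was below the filter at 1.82 to 3.42 TPM in the immersion libraries and 1.98 to 3.41 TPM in the control libraries.

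Outside the ecdysteroid enzymes, the mitochondrial TRINITY_DN19467_c1_g1 resembles Cyp301a1, which in Drosophila takes part in forming the cuticle. It had 9.18, 7.43 and 9.45 TPM in the immersion libraries, against 6.57, 6.86 and 7.36 TPM in the control libraries. The groups were close without overlap in TPM and overlapped in normalised CPM, and the log2 fold change was 0.20 (SE 0.21, edgeR adjusted p 0.484). A shorter Cyp301a1-like row, TRINITY_DN15694_c0_g1, was among the lowest rows kept by the filter. It had 2.29, 4.64 and 6.28 TPM in the immersion libraries, against 6.05, 2.34 and 0.83 TPM in the control libraries, on 2 to 14 estimated counts, and its log2 fold change was 0.36 (SE 0.62).

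In the CYP2 clan the highest row was TRINITY_DN7107_c0_g1, a Cyp305a1 relative. It had 78.1, 71.4 and 85.0 TPM in the immersion libraries, against 39.1, 118 and 132 TPM in the control libraries. The immersion libraries lay together between control 1 and the other controls. The fitted change on the log2 scale was -0.18 (SE 0.38, edgeR adjusted p 0.723). Against control 1 alone it was 1.03, and with unscaled CPM it was 0.21. Without control 1 it was -0.54 with an edgeR adjusted p of 0.0132, in a fit where 52.3% of all genes passed. The Cyp304a1-like TRINITY_DN25173_c0_g1 had 40.7, 37.8 and 29.2 TPM in the immersion libraries, against 41.7, 48.95 and 38.3 TPM in the control libraries. Its groups overlapped, with a log2 fold change of -0.23 (SE 0.18, edgeR adjusted p 0.343) and 0.09 with unscaled CPM.

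The relative of CYP15A1, the cockroach epoxidase that makes juvenile hormone from methyl farnesoate, was low and uneven. Its tested row, TRINITY_DN12581_c0_g4, had 0.3, 3.0 and 4.01 TPM in the immersion libraries, against 3.04, 0.83 and 1.35 TPM in the control libraries. Immersion 1 was the lowest and immersion 3 the highest of all 6 libraries. The log2 fold change was 0.49 (SE 0.83, edgeR adjusted p 0.661). The other 3 rows of its assembly component were fragments below the filter. The KEGG entry of these rows, methyl farnesoate epoxidase or farnesoate epoxidase, is also that of the Cyp304a1-like DN25173. The tested row without a subfamily, DN8272, had 7.51 to 10.8 TPM in the immersion libraries and 7.53 to 12.1 TPM in the control libraries, with a log2 fold change of -0.05 (SE 0.28).

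At the edge of the filter, the CYP9E row TRINITY_DN1491_c2_g1 was kept at a mean of 0.717 normalised CPM and DN15694 at 0.464. Just outside it were DN7591 at 0.651 and the CYP9E row DN6457 at 0.414. DN1491 had 12.6, 17.2 and 15.3 TPM in the immersion libraries, against 20.4, 12.97 and 18.9 TPM in the control libraries. These overlapped, and the log2 fold change was -0.08 (SE 0.38), or 0.25 with unscaled CPM. DN6457 had 1.58, 22.5 and 32.5 TPM in the immersion libraries, against 19.3, 22.2 and 3.87 TPM in the control libraries, on at most 15.5 estimated counts. The lowest value was in immersion 1 and the highest in immersion 3.

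The NADPH-cytochrome P450 reductase serves all microsomal P450s and was among the highest members. TRINITY_DN1635_c0_g1 had 447, 368 and 278 TPM in the immersion libraries, against 370, 441 and 575 TPM in the control libraries. The groups overlapped, with control 3 the highest and immersion 3 the lowest. This gave a log2 fold change of -0.32 (SE 0.24, edgeR adjusted p 0.332) and 0.03 with unscaled CPM. A shorter row of the same component, TRINITY_DN1635_c0_g2, had 12.95, 13.7 and 12.3 TPM in the immersion libraries, against 18.6, 15.2 and 8.07 TPM in the control libraries. It too overlapped, with a log2 fold change of -0.17 (SE 0.30) and 0.12 with unscaled CPM. For each TPM of reductase there were 8.03, 8.36 and 11.1 TPM of P450 rows in the immersion libraries and 10.3, 10.1 and 8.85 TPM in the control libraries, without separation of the groups.

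Genes that work with the P450s were read from lists of description patterns. Among electron donors, most rows other than the reductase had positive fold changes. The positive row TRINITY_DN1190_c0_g1 (log2 fold change 0.38) is described as an mRNA methyltransferase, and only its symbol, fdxr, names a donor enzyme. Of 13 tested rows of the donor list, the 2 reductase rows included, 9 were positive and 4 negative, and the median log2 fold change was 0.40. With unscaled CPM all 13 were positive, and set against control 1 alone the median was 0.10. Of these, 2 had an edgeR unadjusted p under 0.05, both higher in immersion libraries (15.4%, against 14.2% of all genes in that direction), and 0 passed after adjustment. The cytochrome b5-like TRINITY_DN4837_c0_g1, which can pass the second electron to a P450, had 1192, 1394 and 908 TPM in the immersion libraries, against 682, 513 and 278 TPM in the control libraries. All immersion values lay above all control values. edgeR fitted a log2 fold change of 1.03 (SE 0.27, edgeR p 0.00568, adjusted p 0.0907), and 0.83 against control 1 alone. A second cytochrome b5 row, TRINITY_DN1574_c0_g1, had 91.4, 99.3 and 82.3 TPM in the immersion libraries, against 75.2, 57.5 and 26.6 TPM in the control libraries. Its groups did not overlap, with a log2 fold change of 0.80 (SE 0.34, edgeR adjusted p 0.144), or 0.29 against control 1 alone. The NADH-cytochrome b5 reductase row DN5422_c0_g2 had a log2 fold change of 0.90 (SE 0.45, edgeR adjusted p 0.181), or 0.07 against control 1 alone.

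The heme synthesis list, which also holds the heme-degrading heme oxygenase, covers the making of the P450 cofactor. All 9 rows were positive with TMM, with a median log2 fold change of 0.42, against 0.11 set against control 1 alone, where 8 were positive. The row TRINITY_DN2284_c0_g1 (log2 fold change 0.39) is described as protoporphyrinogen oxidase but has the symbol of another protein, TAF13. A single row, TRINITY_DN3248_c0_g1 for uroporphyrinogen decarboxylase, had an edgeR unadjusted p under 0.05 (11.1%, against 14.2% of all genes in that direction). It had 65.4, 66.6 and 50.3 TPM in the immersion libraries, against 49.1, 32.6 and 17.4 TPM in the control libraries, which stood apart. The fitted change on the log2 scale was 0.86 (SE 0.33, edgeR adjusted p 0.125), or 0.32 against control 1 alone. Coproporphyrinogen oxidase, TRINITY_DN6888_c0_g1, had a log2 fold change of 0.63 (SE 0.27, edgeR adjusted p 0.148), or 0.14 against control 1 alone. The first enzyme of the pathway, 5-aminolevulinate synthase, TRINITY_DN7100_c0_g1, had 210, 177 and 152 TPM in the immersion libraries, against 159, 132 and 118 TPM in the control libraries. Control 1 lay inside the immersion range, and the log2 fold change was 0.40 (SE 0.19, edgeR adjusted p 0.170), or 0.16 against control 1 alone.

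The later detoxification steps conjugate, hydrolyse or export what P450s oxidise. Of 47 tested rows, 31 were negative and 16 positive, with a median log2 fold change of -0.28, and with unscaled CPM 27 were positive and the median was 0.04. At an edgeR unadjusted p under 0.05 stood 10 lower and 2 higher rows (25.5% in all, against 34.8% of all tested genes), and 0 passed after adjustment. Set against control 1 alone the median was -0.11. The list is mixed, since its patterns also matched sulfotransferases of heparan sulfate, of other carbohydrates and of protein tyrosine, and the Wnt regulator Notum, which are no detoxification genes. The 3 rows with the smallest p were UDP-glucuronosyltransferases, which add a sugar to oxidised products. TRINITY_DN25534_c0_g1 had 15.7, 9.35 and 10.7 TPM in the immersion libraries, against 26.7, 22.4 and 26.9 TPM in the control libraries. These groups stood apart, at a log2 fold change of -1.08 (SE 0.23, edgeR adjusted p 0.0894), and -1.18 against control 1 alone. TRINITY_DN555_c0_g2 had 170, 147 and 148 TPM in the immersion libraries, against 175, 379 and 451 TPM in the control libraries, where control 1 was near the immersion values. Its log2 fold change was -1.13 (SE 0.32, edgeR adjusted p 0.0924), and that of TRINITY_DN730_c0_g1 was -0.95 (SE 0.24, edgeR adjusted p 0.0907). Against control 1 alone TRINITY_DN555_c0_g2 had -0.26 and TRINITY_DN730_c0_g1 had -0.41.

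The regulator list was built from patterns for factors known to control insect P450 genes, and some of its rows are described as, or close to, clock genes. Of 9 tested rows, 8 were negative and 1 positive, the median log2 fold change was -0.34, or 0.04 with 5 positive on unscaled CPM, and set against control 1 alone it was -0.02. At an edgeR unadjusted p under 0.05 stood 2 lower rows (22.2%, against 20.6% of all tested genes in that direction) and 0 higher rows. Of the rows for cap'n'collar (cnc), which switches on detoxification genes in Drosophila, TRINITY_DN873_c0_g1 had the smaller p. It had 97.7, 80.7 and 88.0 TPM in the immersion libraries, against 101, 123 and 175 TPM in the control libraries. The groups stood apart with control 1 close to immersion 1, at a log2 fold change of -0.55 (SE 0.22, edgeR adjusted p 0.130), or -0.21 against control 1 alone. The other cap'n'collar row, TRINITY_DN2507_c0_g3, had 5.87 to 6.39 TPM in the immersion libraries and 5.93 to 6.31 TPM in the control libraries, which overlapped, and a log2 fold change of 0.07 (edgeR adjusted p 0.774). The tango (tgo) row, TRINITY_DN1426_c0_g1, a partner of the aryl hydrocarbon receptor, had a log2 fold change of -0.51 (SE 0.20, edgeR adjusted p 0.130), or -0.13 against control 1 alone. TRINITY_DN656_c0_g2, described as a translocator-like protein and close to the clock gene cycle, had -0.59 (SE 0.29, edgeR adjusted p 0.182), or 0.00 against control 1 alone.

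**Figure D5:**
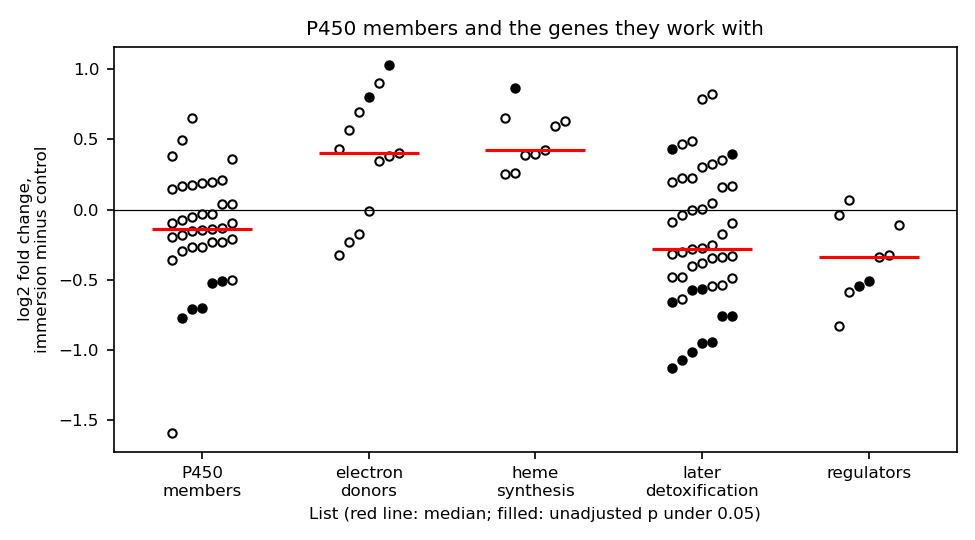
Points give the fitted log2 fold change (immersion minus control) of each tested gene in the P450 rows without the reductase and in 4 lists of genes they work with, red lines give medians, and filled points have an unadjusted p under 0.05. The donor and heme lists have medians of 0.40 and 0.42, the later detoxification and regulator lists of -0.28 and -0.34, which are both 0.04 with unscaled CPM. None of these genes passed after adjustment.

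The spread within the groups is described next, and its part in the calls was not tested. Control values spanned a wider range than immersion values in 24 of the 40 tested members, with a median ratio of highest to lowest of 1.45 in the control libraries and 1.36 in the immersion libraries. The median SD of log2 normalised CPM was 0.20 in the immersion libraries and 0.28 in the control libraries for members, against 0.12 and 0.37 for all genes. Without control 1, 10 of the members tested in that fit passed edgeR's adjusted threshold, 7 lower and 3 higher, where 52.3% of all genes passed. The members that passed were the CYP9E rows DN326, DN5368 and DN2091, the CYP6K row DN24993, DN7107, DN2115 and DN7471, all lower, and DN4731 and the CYP6A rows DN836_c0_g3 and DN10344, all higher. Over the same 40 members the median log2 fold change was -0.11 without control 1, and -0.18 against control 1 alone.

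The share of members at an unadjusted p under 0.05 lay below that of all genes under each other setting given here. It was 3 of 40 with upper quartile scaling (all genes 33.1%), 20 of 40 with limma-voom library weights (71.9%) and 11 of 40 with a length trend removed (32.5%, and 0.303% after adjustment). It was 3 of 42 with the replicate number as a block (32.7%), and 1 of 7 where rows of the same description were summed (34.9%). With the term for worm counts it was 2 of 43, against 7.42% of all genes, of which 0.0103% passed after adjustment. Leaving out immersion 1, 2 or 3 gave 2 of 42, 1 of 41 and 1 of 41 members, against 19.6%, 14.9% and 19.7% of all genes. Leaving out control 1, 2 or 3 gave 11 of 42, 3 of 42 and 4 of 41 members, against 60.5%, 19.6% and 31.1% of all genes. After adjustment 3.87% of all genes and 0 members passed without control 3. Without control 1, 25.7% of all genes passed as higher and 26.6% as lower, and 75.7% did not overlap between the groups, against 16 of 40 members.

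Markers of tissues known to hold P450s varied between libraries as well. Their counts at an edgeR unadjusted p under 0.05 stand beside 20.6% lower and 14.2% higher among all tested genes. Fat body markers (vitellogenin, hexamerin, apolipophorin) summed to 5938 to 7639 TPM in the immersion libraries and 5610 to 28710 TPM in the control libraries, and 5 of 9 tested rows had an edgeR unadjusted p under 0.05, all lower. Gut markers summed to 8409 to 9392 TPM in the immersion libraries and 5705 to 15500 TPM in the control libraries, with 4 of 20 tested rows lower and 0 higher by the same measure. The Malpighian tubule list was built from the descriptions V-type proton ATPase, urate oxidase and uricase. Its use as a measure of tubule content was not tested. The list summed to 5928 to 6452 TPM in the immersion libraries and 5274 to 6195 TPM in the control libraries. Of its 17 tested rows, 3 were lower and 1 higher by the same measure. No marker of the fat body, gut or tubule list was at 0 in every library. Control 3 was the highest library for the summed P450 members and for the fat body, gut, nervous system and testis lists. It was the lowest library for the Malpighian tubule list, and neither highest nor lowest for the muscle and antenna lists. The part of these tissues in the P450 values was not tested. Lists for muscle, nervous system, antenna and testis had 25 of 43, 10 of 19, 0 of 29 and 2 of 9 tested rows lower by the same measure, and 0, 0, 3 and 1 higher.

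The rule left out 2 rows of the 4G subfamily, enzymes that make cuticular hydrocarbons. The Cyp4g15-like TRINITY_DN6938_c0_g1 alone had 10875, 8878 and 6811 TPM in the immersion libraries, against 9935, 16789 and 30763 TPM in the control libraries, more than all 54 members together in any library. Its groups overlapped, at a log2 fold change of -1.09 (SE 0.43, edgeR adjusted p 0.129). The lower row, TRINITY_DN2486_c0_g3, had 45.7, 28.4 and 43.9 TPM in the immersion libraries, against 61.4, 82.2 and 82.9 TPM in the control libraries. These did not overlap, and the log2 fold change was -0.92 (SE 0.20, edgeR adjusted p 0.0907).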

How the data were processed

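The authors deposited a table of estimated counts and TPM per assembled gene for the 6 libraries, with descriptions. Cutadapt 1.9, Salmon and edgeR are named per the submitters' processing notes, without roles. The sources used here do not give the assembly, index, annotation settings or strand, and antisense reads cannot be told apart. The test was edgeR 4.0.16 under R 4.3.3, run on the deposited estimated counts after rounding (filterByExpr, TMM, glmQLFit with the legacy option, glmQLFTest, treatment as the only term, two-sided). The fit covered the 9250 Hymenoptera-matched genes that passed the filter, with Benjamini-Hochberg adjustment over all of them and a threshold of 0.05. Levels are the deposited TPM, and normalised CPM are CPM scaled by TMM. Errors are SD over 3 libraries or the SE of the fit. Intervals on single libraries were not computed.

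Members and lists were chosen with earlier results of these data known. Values in every library are given for the 3 highest members of each clan, the 12 members with the smallest p, the reductase rows and 2 rows on each side of the filter. The 3 genes with the smallest p are named in each partner list, and DN2507 was added after its values were seen. The other rows named with values (DN7960, DN10344, DN1342, DN12581, DN8645, DN14285, DN2610, DN13, DN72, DN24999, DN8272, DN234, DN10634, DN629, DN10815, DN18375 and the DN836 rows) were chosen after their values were seen. Clans follow textbook families. Scripts were tested on simulated counts. Alternatives were DESeq2 1.42.0, limma 3.58.1 (voom, and log2(TPM + 1)), RLE, upper quartile and unscaled libraries, other filters, the whole table, a replicate block, a term for the 4 libraries above 1000 CPM of worm counts, a loess trend on length (span 0.3), summed descriptions and each library left out.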

Additional observations from a re-analysis of the deposited data

Results flagged for a closer look

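P450 genes were also seen outside the bee-matched rows. The ant-matched row TRINITY_DN959_c0_g1, with the Swiss-Prot symbol CYP9E2, had 35.7, 24.4 and 33.0 TPM in the immersion libraries. Its control values were 42.5, 39.2 and 47.7 TPM, without overlap. The log2 fold change was -0.42 (SE 0.18, edgeR adjusted p 0.143), or -0.09 with unscaled CPM. The 3 rows that name cytochrome P450 and match Caenorhabditis were left out of the main fit and of the member sums. They summed to 18.8, 18.2 and 15.9 TPM in immersion libraries 1, 2 and 3 (mean 17.65), against 3.09, 0 and 0 TPM in control libraries 1, 2 and 3. The libraries where these rows had TPM above 0 are the 4 with over 1000 CPM of worm-matched counts. The 17 rows matching mouse, human or rat summed to 8.59, 15.3 and 12.2 TPM in the immersion libraries, against 17.5, 0.19 and 0 TPM in the control libraries. None of these rows adds to the bee P450 sums.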

How the results depend on the processing

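The count of called members (0 of 40) became 3 with DESeq2 and 17 with limma-voom library weights, and 0 to 10 with each library left out, the 10 without control 1. All other alternatives kept 0. Calls among all genes (0) became 2028 with DESeq2, 6369 with library weights, 1 with the worm term, 28 with the length trend removed, and 0 to 4912 with each library left out (4912 without control 1, 362 without control 3). Members at an unadjusted p under 0.05 (5) became 3 with upper quartile, 20 with library weights, 2 with the worm term, 11 with the length trend removed, 1 of 7 with the same description summed (which merges most members), and 1 to 11 with each library left out. With the replicate block they became 3, with 0 members called. After each gene's group mean was taken off, the same-numbered libraries had correlations of -0.154, 0.141 and 0.164. With 3 libraries per group, such correlations cannot settle whether the numbers pair the samples.

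The median log2 fold change (-0.14) became -0.046 with upper quartile, -0.27 with the length trend removed, -0.32 with descriptions summed and 0.20 with unscaled CPM, and ran between -0.14 and -0.10 with each library left out. Members without overlap (7) became 16 without control 1, where 75.7% of all genes did not overlap. The log2 ratio of summed TPM (-0.43) became 0.001 with unscaled CPM.

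Among 34 named genes, 608 values kept direction and call, 50 became calls (22 with library weights, 20 without control 1, 7 with DESeq2, 1 without control 3) and 30 in 14 genes turned sign. With unscaled CPM these were DN7107 0.21, DN25173 0.09, DN712 0.24, DN2100 0.07, DN4792 0.06, DN1635_c0_g1 0.03, DN1635_c0_g2 0.12 and DN1491 0.25. With the worm term they were DN7107 1.03, DN2176 -0.22, DN2091 0.67, DN15694 -0.38 and DN656_c0_g2 0.00. With the length trend removed they were DN2885 -0.03, DN712 0.47 and DN19467 -0.01. With library weights they were DN2176 -0.02, DN712 0.05 and DN1491 0.36. With upper quartile they were DN712 0.01 and DN1491 0.02, and with log2(TPM + 1) DN2176 -0.13. With each library left out the values crossed 0 for 5 genes, between -0.54 and 0.07 for DN7107, -0.11 and 0.19 for DN2176, -0.3 and 0.15 for DN1491, -0.42 and 0.01 for DN1635_c0_g2, and -0.01 and 0.98 for DN15694. The cause was not tested. Rows with few counts are limited by depth.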
